A study of Rattus norvegicus with 23 samples.

Results

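Betaine-homocysteine methyltransferase and the enzymes that surround it in homocysteine and one-carbon metabolism were followed in the rat kidney through the transcripts of Bhmt, Dmgdh, Sardh, Mat2a, Gnmt, Cbs and Cth. These 7 genes were chosen by name, with earlier results of these data known, out of 14217 genes with exactly 1 gene symbol on the array. Their symbols were carried by 10 probe sets. A gene with several probe sets was read at the one with the highest mean signal, and the others were set beside it. Kidney RNA from male rats of a pair of Sabra lines was hybridised to Affymetrix arrays, 1 array for each of 23 samples. The lines were SBH/y, known as the hypertension-prone line, and SBN/y, known as the hypertension-resistant line, both fed standard chow. The groups were SBH/y with 1 kidney after right uninephrectomy (6 arrays), SBH/y with 2 kidneys after a sham operation (6 arrays), SBN/y with 1 kidney after right uninephrectomy (6 arrays) and SBN/y with 2 kidneys after a sham operation (5 arrays). Surgery followed weaning, and the kidneys were collected at 4 months of age, 3 months after the operation. The series carries proteinuria in its title, and its design sets strain against strain and 1 kidney against 2. Values are log2 signals, and a difference of 1 on this scale is a doubling of signal.

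Homocysteine, the sulfur amino acid left after a methyl group has been given away, has a pair of main fates. It can be methylated back to methionine, by BHMT with betaine as the donor or by methionine synthase with a folate donor, or it can be turned into cystathionine and then cysteine by CBS and CTH. Methionine is activated to S-adenosylmethionine, the general methyl donor, and the dimethylglycine that BHMT releases is oxidised in mitochondria to sarcosine and then glycine. The kidney is known as a site of homocysteine removal, and betaine also serves there as an osmolyte.

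Promoter sequences of 6 of the 7 genes were found in RefSeq (assembly GRCr8, from a rat of another strain than those studied). Shown are the 250 bases before the annotated start for Bhmt, Cth, Mat2a and Gnmt, the genes called lower in SBH/y after uninephrectomy. Each of these windows held the letters TATAA, here in capitals. The windows were picked by the call and the letters together, and TATAA was picked out of several short motifs searched. They therefore cannot show a link between call and letters, which was not tested. The call of Cth was lost without some single arrays, as given below. The first base of TATAA lay at position -29 in Bhmt, -42 in Cth, -78 in Mat2a and -43 in Gnmt, with -1 the base before the start. The windows lie on the minus strand at chr2:26614430-26614679 (Bhmt), chr2:249661067-249661316 (Cth) and chr4:106053613-106053862 (Mat2a), and on the plus strand at chr9:21752032-21752281 (Gnmt).
Bhmt: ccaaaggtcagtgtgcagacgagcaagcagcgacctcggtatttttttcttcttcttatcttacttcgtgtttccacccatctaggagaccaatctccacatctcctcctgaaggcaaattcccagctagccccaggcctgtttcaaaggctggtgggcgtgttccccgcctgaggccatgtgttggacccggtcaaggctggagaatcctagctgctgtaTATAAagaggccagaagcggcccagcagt
Cth: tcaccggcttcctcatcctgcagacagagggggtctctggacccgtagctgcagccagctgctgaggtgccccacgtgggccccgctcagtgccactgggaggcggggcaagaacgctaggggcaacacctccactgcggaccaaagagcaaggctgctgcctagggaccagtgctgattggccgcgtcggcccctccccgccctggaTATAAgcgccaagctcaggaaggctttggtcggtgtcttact
Mat2a: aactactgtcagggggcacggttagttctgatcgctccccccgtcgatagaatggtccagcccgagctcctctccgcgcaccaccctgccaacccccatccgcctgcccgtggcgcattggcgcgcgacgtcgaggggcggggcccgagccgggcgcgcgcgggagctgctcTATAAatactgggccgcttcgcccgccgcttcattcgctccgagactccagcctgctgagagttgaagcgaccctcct
Gnmt: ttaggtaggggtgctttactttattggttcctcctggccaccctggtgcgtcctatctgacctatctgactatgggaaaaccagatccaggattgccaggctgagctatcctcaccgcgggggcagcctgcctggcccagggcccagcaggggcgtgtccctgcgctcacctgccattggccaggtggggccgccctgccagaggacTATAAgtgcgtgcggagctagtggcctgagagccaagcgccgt
TATAA was searched on both strands of windows from 250 bases before to 50 bases after the start. It occurred in 26.2% of 33469 such windows in RefSeq, and on the strand of the gene in 18.4%. No match of TATAA was found in the windows of Cbs and Sardh. The other short motifs searched did not split the genes in this way. Among them, 1 was found in all 6 genes, another in Cbs, Cth, Mat2a and Gnmt, and the last in Cth and Sardh. A match is a description of these letters and no more.

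Bhmt, which moves a methyl group from betaine to homocysteine, had the lowest signal in SBH/y after uninephrectomy and differed most between the strains among the 7 genes. Its log2 signal ran from 5.28 to 5.89 with a median of 5.53 in SBH/y with 1 kidney, and from 5.94 to 6.13 with a median of 6.01 in SBH/y with 2 kidneys. It ran from 7.35 to 7.84 with a median of 7.54 in SBN/y with 1 kidney, and the SBN/y arrays with 2 kidneys read 7.53, 7.39, 7.57, 7.70 and 7.65. Every SBH/y array lay below every SBN/y array, and within SBH/y every array with 1 kidney lay below every array with 2. The SBN/y groups overlapped.

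With 2 kidneys, Bhmt was lower in SBH/y by 1.55 ± 0.09 (SE) on the log2 scale, a ratio of 0.342 (limma adjusted p = 3.94e-13). With 1 kidney it was lower by 2.01 ± 0.08, a ratio of 0.249 (adjusted p = 6.02e-16). After uninephrectomy Bhmt fell to 5.54 ± 0.20 in SBH/y with 1 kidney, against 6.02 ± 0.08 in SBH/y with 2 (SD, n = 6 each). This difference of -0.48 ± 0.08 (SE) had a 95% interval from -0.66 to -0.31 and an adjusted p of 0.000539. In SBN/y the same comparison gave -0.02, with a 95% interval from -0.20 to 0.16 (adjusted p = 0.99).

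**Figure D1:**
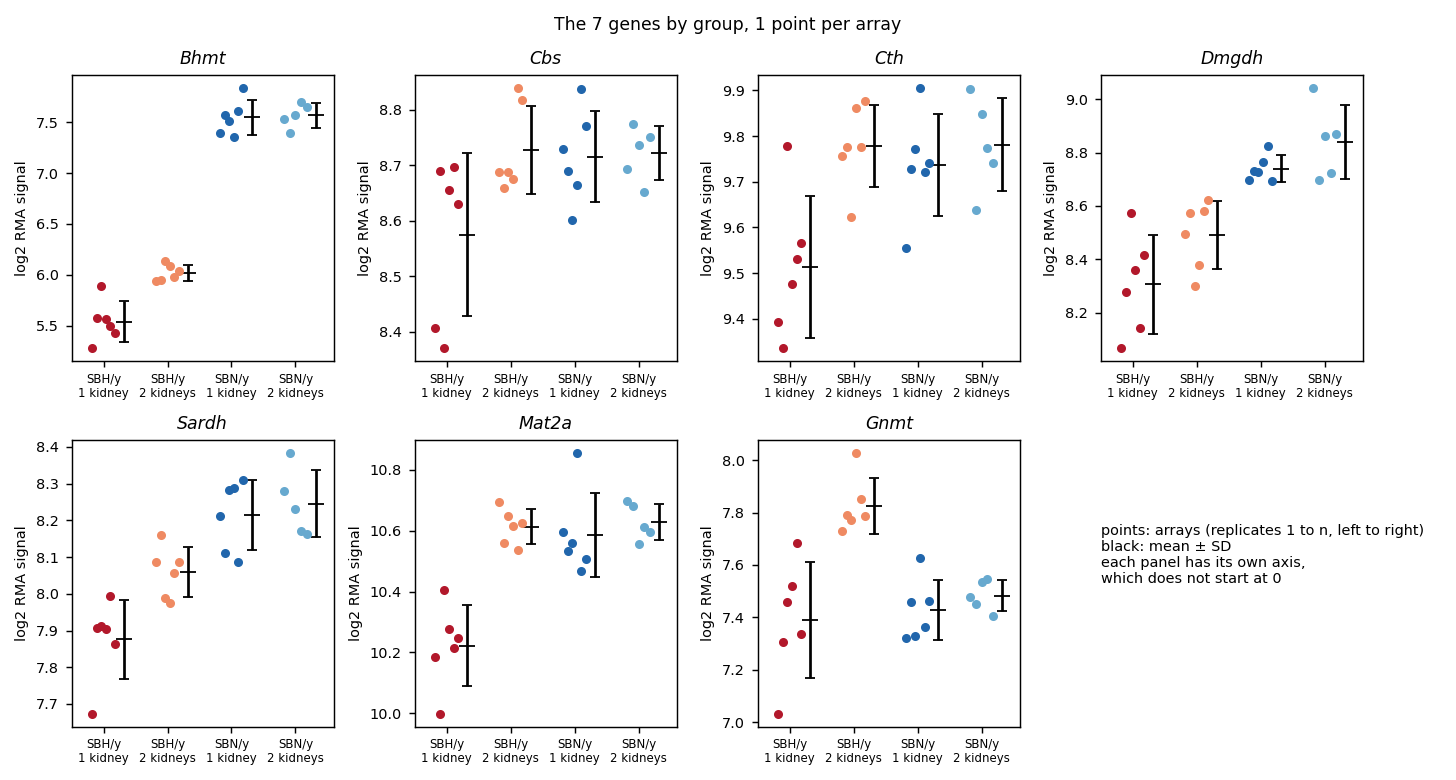
Log2 signal of each of the 7 genes on every array, in the order SBH/y with 1 kidney, SBH/y with 2, SBN/y with 1 and SBN/y with 2, with points for arrays and bars for the mean and SD. Bhmt separates the strains without overlap, with SBH/y arrays from 5.28 to 6.13 and SBN/y arrays from 7.35 to 7.84, whereas Mat2a and Cth are lower in SBH/y with 1 kidney.

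Dmgdh and Sardh take up the product of the BHMT reaction. Dmgdh, the mitochondrial dehydrogenase that turns dimethylglycine into sarcosine, ran from 8.07 to 8.57 (median 8.32) in SBH/y with 1 kidney and from 8.30 to 8.62 (median 8.53) in SBH/y with 2 kidneys. It ran from 8.69 to 8.83 (median 8.73) in SBN/y with 1 kidney and read 9.04, 8.70, 8.86, 8.72 and 8.87 in SBN/y with 2 kidneys. At either kidney number the strains did not overlap. Dmgdh was lower in SBH/y by 0.35 ± 0.08 with 2 kidneys (adjusted p = 0.00377) and by 0.43 ± 0.08 with 1 kidney (adjusted p = 0.000128). The uninephrectomy difference did not pass the threshold in SBH/y (-0.18 ± 0.08, adjusted p = 0.2) or in SBN/y (-0.10, 95% interval from -0.26 to 0.07).

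Sardh, the dehydrogenase that turns sarcosine into glycine, ran from 7.67 to 7.99 (median 7.91) in SBH/y with 1 kidney and from 7.97 to 8.16 (median 8.07) in SBH/y with 2 kidneys. It ran from 8.09 to 8.31 (median 8.25) in SBN/y with 1 kidney and read 8.28, 8.38, 8.23, 8.17 and 8.16 in SBN/y with 2 kidneys. With 1 kidney the strains were apart and Sardh was lower in SBH/y by 0.34 ± 0.06 (adjusted p = 0.00011). With 2 kidneys the difference of -0.19 ± 0.06 was just outside the threshold (adjusted p = 0.056). The arrays of the strains narrowly did not overlap, with 8.161 the highest in SBH/y and 8.164 the lowest in SBN/y. This difference passed in 1 of 11 fits with an array left out, where the adjusted p reached 0.169. It also passed in 3 of 9 other settings, for example at adjusted p = 0.033 with a trended and robust variance. In SBH/y the uninephrectomy difference was -0.18 ± 0.06 (adjusted p = 0.0713). It passed in 1 of 12 fits with an array left out, where the adjusted p reached 0.214. Of 9 other settings it passed in 4, at adjusted p = 0.0416 with a trended and robust variance.

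Mat2a and Gnmt stand at the making and the use of S-adenosylmethionine. Mat2a, the catalytic subunit of the methionine adenosyltransferase of tissues outside the adult liver, ran from 9.999 to 10.41 (median 10.23) in SBH/y with 1 kidney. It ran from 10.54 to 10.69 (median 10.62) in SBH/y with 2 kidneys and from 10.47 to 10.86 (median 10.55) in SBN/y with 1 kidney. The SBN/y arrays with 2 kidneys read 10.70, 10.68, 10.56, 10.61 and 10.60. Only the SBH/y group with 1 kidney stood below the others, and it overlapped with none of them.

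After uninephrectomy Mat2a fell to 10.22 ± 0.13 in SBH/y with 1 kidney, against 10.61 ± 0.06 in SBH/y with 2 (SD, n = 6 each). The difference was -0.39 ± 0.06 (SE, adjusted p = 0.00026), whereas SBN/y gave -0.04, with a 95% interval from -0.18 to 0.10. Between the strains, Mat2a was lower in SBH/y by 0.37 ± 0.06 with 1 kidney (adjusted p = 0.000138). With 2 kidneys the strain difference was -0.01, with a 95% interval from -0.15 to 0.12.

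Gnmt, which spends S-adenosylmethionine to methylate glycine to sarcosine, was the only one of the 7 genes with a higher signal in SBH/y that passed the test. Its signal ran from 7.03 to 7.68 (median 7.40) in SBH/y with 1 kidney and from 7.73 to 8.03 (median 7.79) in SBH/y with 2 kidneys. It ran from 7.32 to 7.62 (median 7.41) in SBN/y with 1 kidney and read 7.48, 7.45, 7.54, 7.55 and 7.41 in SBN/y with 2 kidneys. SBH/y with 2 kidneys lay above all other arrays, and the remaining 3 groups overlapped.

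With 2 kidneys Gnmt was higher in SBH/y by 0.34 ± 0.08 (adjusted p = 0.00608). With 1 kidney the strain difference was -0.04, with a 95% interval from -0.20 to 0.12 (adjusted p = 0.849). After uninephrectomy it fell to 7.39 ± 0.22 in SBH/y with 1 kidney, against 7.83 ± 0.11 in SBH/y with 2 (SD, n = 6 each), a difference of -0.44 ± 0.08 (SE, adjusted p = 0.000767). In SBN/y the difference was -0.06, with a 95% interval from -0.23 to 0.11.

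Cbs and Cth, the enzymes of the transsulfuration branch, overlapped between groups in every comparison. Cth, which cleaves cystathionine to cysteine, ran from 9.34 to 9.78 (median 9.50) in SBH/y with 1 kidney and from 9.62 to 9.88 (median 9.78) in SBH/y with 2 kidneys. It ran from 9.55 to 9.91 (median 9.73) in SBN/y with 1 kidney and read 9.90, 9.64, 9.85, 9.77 and 9.74 in SBN/y with 2 kidneys. The SBH/y group with 1 kidney was low but overlapped with each of the others. Cth was lower in SBH/y with 1 kidney by 0.22 ± 0.07 than in SBN/y with 1 kidney (adjusted p = 0.028), and by 0.26 ± 0.07 than in SBH/y with 2 kidneys (adjusted p = 0.0212).

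Both Cth calls depended on single arrays. Of 8 other settings, the strain call with 1 kidney was lost in 3 and the uninephrectomy call in SBH/y in 2. The strain call was lost without any of 5 single arrays: replicates 1, 2 and 4 of SBH/y with 1 kidney, the highest of these adjusted p values being 0.0805, and replicates 3 and 4 of SBN/y with 1 kidney, the higher being 0.082. The uninephrectomy call was lost without replicates 4 or 6 of SBH/y with 2 kidneys (adjusted p = 0.055 and 0.0527), or 1 or 2 of SBH/y with 1 kidney (adjusted p = 0.0676 and 0.0636).

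Cbs, which joins homocysteine to serine, ran from 8.37 to 8.70 (median 8.64) in SBH/y with 1 kidney and from 8.66 to 8.84 (median 8.69) in SBH/y with 2 kidneys. It ran from 8.60 to 8.84 (median 8.71) in SBN/y with 1 kidney and read 8.69, 8.77, 8.74, 8.65 and 8.75 in SBN/y with 2 kidneys. All groups overlapped. No comparison of Cbs passed the threshold: with 1 kidney the strain difference was -0.14 (95% interval from -0.27 to -0.02, adjusted p = 0.145), and with 2 kidneys it was 0.01 (95% interval from -0.12 to 0.14). The uninephrectomy difference in SBH/y was -0.15 (95% interval from -0.28 to -0.03, adjusted p = 0.184).

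**Figure D2:**
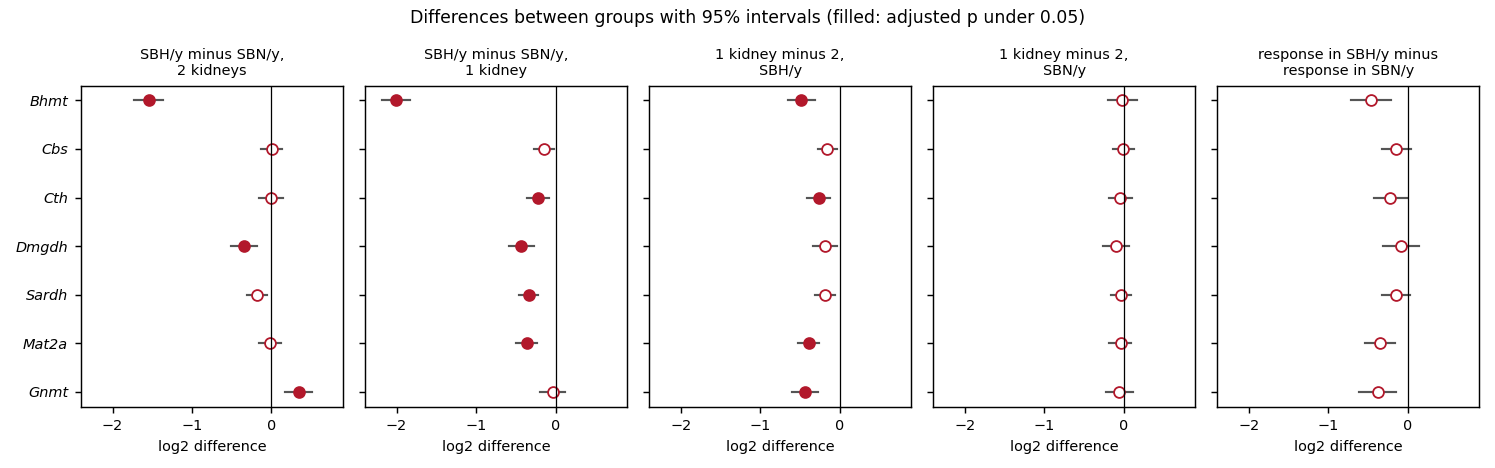
Log2 differences with 95% intervals for the 7 genes, in SBH/y minus SBN/y at each kidney number, in 1 kidney minus 2 within each strain, and in the difference between these responses. Bhmt lies farthest below 0 in both strain comparisons (-1.55 and -2.01), and in SBN/y all intervals of the uninephrectomy difference include 0.

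Read gene by gene over the comparisons, 3 of the 7 genes differed between the strains with 2 kidneys, Bhmt and Dmgdh lower and Gnmt higher in SBH/y. Over all 14217 genes, 11.0% passed, 5.54% lower and 5.50% higher. Arrays of the strains did not overlap for 4 of the 7 genes, against 9.72% of all genes. The median difference was -0.01 for the 7 genes and 0.01 for all genes.

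With 1 kidney, 5 of the 7 genes were lower in SBH/y (Bhmt, Dmgdh, Sardh, Mat2a and Cth) and 0 were higher, against 7.48% lower, 10.2% higher and 17.7% in all over all genes. Groups did not overlap for 4 of the 7, against 9.81% of all genes. The median difference was -0.34 for the 7 genes and 0.01 for all genes.

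After uninephrectomy in SBH/y, 4 of the 7 genes fell (Bhmt, Mat2a, Gnmt and Cth), against 2.40% that fell, 4.76% that rose and 7.16% in all over all genes. For 3 of the 7 the groups did not overlap, against 4.31% of all genes. The values of all 7 genes were below 0, from -0.48 for Bhmt to -0.15 for Cbs, with a median of -0.26, against 0.00 for all genes. The strain comparisons and the uninephrectomy comparisons share groups of arrays, so the low level of SBH/y with 1 kidney enters both.

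In SBN/y, limma called 0 of the 7 genes after uninephrectomy, against 0.253% of all genes. At an unadjusted p under 0.05 stood 0 of the 7, against 8.36% of all genes. The differences ran from -0.10 for Dmgdh to -0.01 for Cbs, with a median of -0.04, and no gene had groups apart, against 1.65% of all genes.

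The difference between the responses of the strains was then tested directly. Limma called 0 of the 7 genes, against 0.408% of all genes. At an unadjusted p under 0.05 stood 4 of the 7, against 9.54% of all genes. The response of Bhmt was more negative in SBH/y by 0.46 ± 0.12, with a difference from -0.71 to -0.21 (95% interval, adjusted p = 0.128). The corresponding values were -0.35 ± 0.09 for Mat2a (adjusted p = 0.129), -0.38 ± 0.11 for Gnmt (adjusted p = 0.217) and -0.22 ± 0.10 for Cth (adjusted p = 0.569). Leaving out replicate 3 of SBH/y with 1 kidney brought Bhmt to -0.53 (adjusted p = 0.0231) and Mat2a to -0.39 (adjusted p = 0.0484), and Mat2a also passed with a trended and robust variance (adjusted p = 0.0328). With these exceptions, and that of Mat2a under the RNA quality covariate given below, a response that differed between the strains was not shown for any of the 7 genes.

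Within SBH/y with 1 kidney the arrays differed from each other more than in the other groups. The SD of the log2 signal there was the largest of the 4 groups for 6 of the 7 genes, with Mat2a as the exception (0.133, against 0.139 in SBN/y with 1 kidney). Replicate 3 of that group held its highest value for Bhmt (5.89), Dmgdh (8.57), Cth (9.78) and Mat2a (10.41), but its lowest for Cbs (8.37). Replicate 1 held the lowest value for Bhmt (5.28), Dmgdh (8.07) and Gnmt (7.03).

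**Figure D3:**
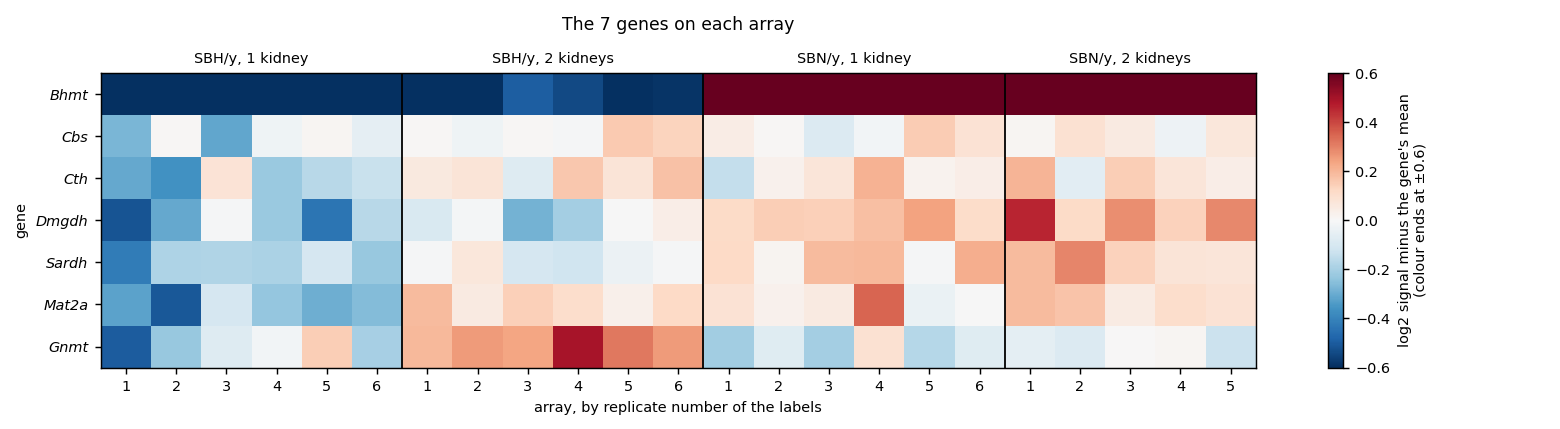
Log2 signal of each of the 7 genes on each array minus the mean of the gene over all 23 arrays, in colour from -0.6 to 0.6, with arrays ordered by group from SBH/y with 1 kidney to SBN/y with 2. Bhmt exceeds the colour scale on every SBH/y array with 1 kidney and on every SBN/y array, and the lowest value of each of the 7 genes lies in SBH/y with 1 kidney.

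Sardh had 1 further probe set and Mat2a had 2. The second Sardh probe set was lower in SBH/y with 1 kidney by 0.23 ± 0.07 (adjusted p = 0.033) and gave -0.07 with 2 kidneys (adjusted p = 0.695), so both Sardh probe sets passed in the same comparison. The second Mat2a probe set was lower in SBH/y with 1 kidney by 0.61 ± 0.13 than in SBN/y with 1 kidney (adjusted p = 0.00136), and by 0.66 ± 0.13 than in SBH/y with 2 kidneys (adjusted p = 0.00222). Its differences were larger than those of the first probe set, and the groups were again apart. The third Mat2a probe set had group means from 3.61 to 3.85, under the median probe set of the arrays (4.662). It gave -0.24 ± 0.08 between the strains with 1 kidney (adjusted p = 0.0386) and -0.12 for uninephrectomy in SBH/y (adjusted p = 0.53).

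Among 14216 other genes, those with the nearest profile over the 23 arrays were found for the 6 genes that passed in at least 1 comparison, Cbs being left out, as the smallest root mean square difference after centring each gene on its own mean. For Bhmt, whose own values had a root mean square of 0.915 around their mean, these were Ly6i (0.221) and Aldh1b1 (0.227), which encodes a mitochondrial aldehyde dehydrogenase. Aldh1b1 was lower in SBH/y by 1.65 ± 0.11 with 2 kidneys and by 2.00 ± 0.11 with 1 kidney, and it fell by 0.48 ± 0.11 after uninephrectomy in SBH/y (adjusted p = 0.0064). Its mean in SBH/y with 1 kidney was 4.51, under the median probe set, so the sizes that involve this group are uncertain. Ly6i differed between the strains by -1.80 and -2.11, but its uninephrectomy difference in SBH/y was -0.17 (adjusted p = 0.184).

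For Gnmt (root mean square 0.219) the nearest profiles were Rhcg (0.099), an ammonia transporter of the collecting duct, and Prodh (0.111), the proline dehydrogenase. Like Gnmt, Rhcg was higher in SBH/y with 2 kidneys (0.29 ± 0.06, adjusted p = 0.00157) and fell after uninephrectomy in SBH/y by 0.37 ± 0.06 (adjusted p = 0.000123). Prodh gave 0.29 ± 0.09 (adjusted p = 0.0292) and -0.32 ± 0.08 (adjusted p = 0.0176) in the same comparisons. For Mat2a (0.196) they were the syndecan gene Sdc2 (0.098) and the aminotransferase gene Aadat (0.103).

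For Dmgdh (0.240) they were Mindy3 (0.088) and Ghr (0.089), the growth hormone receptor. For Sardh (0.169) they were Acss2 (0.068) and Acat1 (0.069), a cytosolic acetyl-CoA synthetase and a mitochondrial thiolase. For Cth (0.155) they were Slc6a20a (0.086), an imino acid transporter that can also carry betaine, and Mmut (0.089), the methylmalonyl-CoA mutase. These are descriptions of likeness over arrays that share groups, and the genes were picked for it.

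Bhmt, Bhmt2 and Dmgdh lie close together on chromosome 2, with 1 annotated gene between Bhmt and Bhmt2 and 0 between Bhmt2 and Dmgdh in the RefSeq order. Bhmt2, which methylates homocysteine from S-methylmethionine rather than betaine, was lower in SBH/y by 0.26 ± 0.05 with 2 kidneys (adjusted p = 0.0015) and by 0.36 ± 0.05 with 1 kidney (adjusted p = 7.02e-06). On the Bhmt side, the next measured gene, Homer1, was lower by 0.58 ± 0.07 with 2 kidneys (adjusted p = 9e-07) and by 0.45 ± 0.07 with 1 kidney (adjusted p = 1.5e-05). Tent2 beyond it gave 0.12 (adjusted p = 0.649) and -0.07 (adjusted p = 0.802).

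On the Dmgdh side, Arsb was higher in SBH/y with 1 kidney by 0.46 ± 0.07 (adjusted p = 6.43e-06) and gave 0.19 with 2 kidneys (adjusted p = 0.0816). Lhfpl2 was higher with 1 kidney by 0.42 ± 0.08 (adjusted p = 0.000579) and gave -0.04 with 2 kidneys (adjusted p = 0.877). The run of lower signals thus reached from Homer1 to Dmgdh among the measured genes. Beside Mat2a, Capg, an actin-capping protein of macrophages and other cells, was higher in SBH/y by 0.31 ± 0.07 with 2 kidneys and by 0.70 ± 0.07 with 1 kidney, and Ggcx was lower with 2 kidneys by 0.19 ± 0.06 (adjusted p = 0.0309).

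Beside Gnmt, C9h6orf226 was lower by 0.27 ± 0.07 with 2 kidneys (adjusted p = 0.0132) and by 0.22 ± 0.07 with 1 (adjusted p = 0.0283). Ppp2r5d was higher with 2 kidneys by 0.20 ± 0.06 (adjusted p = 0.0417). No measured neighbour of Sardh or of Cth passed the threshold.

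**Figure D4:**
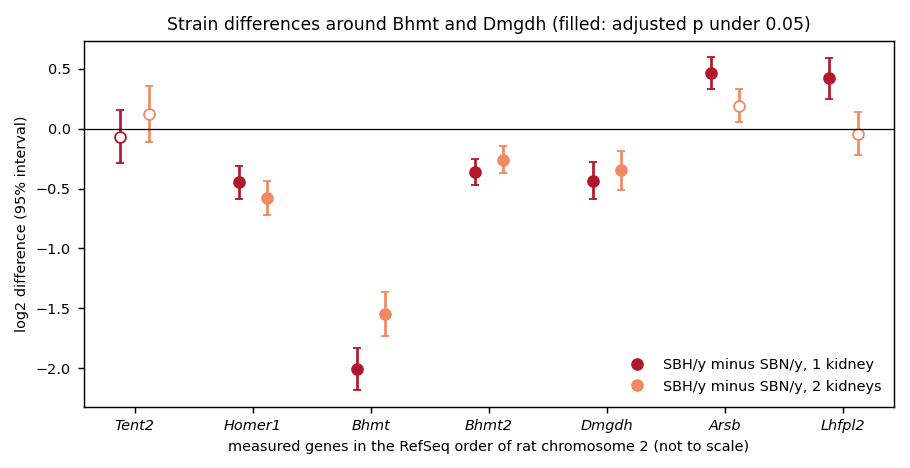
Log2 differences between SBH/y and SBN/y, with 95% intervals, for Bhmt and Dmgdh and the nearest measured genes in the RefSeq order of chromosome 2, with 2 kidneys and with 1. Homer1, Bhmt, Bhmt2 and Dmgdh are below 0 in both comparisons, and Arsb and Lhfpl2 are above 0 with 1 kidney.

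Of 71 other genes listed for the surrounding pathways, 66 were measured under the listed symbol. Between the strains, 10 were lower and 6 higher in SBH/y with 2 kidneys, in all 24.2% of the 66 against 11.0% of all genes. With 1 kidney 16 were lower and 7 higher, in all 34.8% against 17.7% of all genes. After uninephrectomy in SBH/y, 7 fell and 2 rose, in all 13.6% against 7.16% of all genes. Limma called 0 of the 66 in SBN/y and 0 for the difference between the responses. At an unadjusted p under 0.05 stood 4 of them (6.06%) in SBN/y, against 8.36% of all genes, and 8 (12.1%) for the difference between the responses, against 9.54% of all genes. The median over the 66 genes stayed between -0.04 and 0.01 in all 5 comparisons, near the median over all genes. Of 5 measured genes of serine supply, 2 were higher and 1 lower in SBH/y at either kidney number (60%). The share over all genes was 11.0% with 2 kidneys and 17.7% with 1. With 2 kidneys, Psph averaged 7.526 in SBH/y against 7.078 in SBN/y, Psat1 10.451 against 10.111 and Sds 4.864 against 5.185. After uninephrectomy in SBH/y, 0 of these 5 passed, against 7.16% of all genes. Of 6 measured polyamine genes, 1 was lower in SBH/y with 1 kidney (16.7%), near the 17.7% of all genes that passed there. This was Odc1, which averaged 10.548 in SBH/y with 1 kidney against 10.862 in SBN/y with 1 kidney.

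In the methionine cycle list, with 13 measured genes, Ahcy, which splits S-adenosylhomocysteine into homocysteine and adenosine, fell after uninephrectomy in SBH/y by 0.31 ± 0.06 (adjusted p = 0.00182). Adk, which clears the adenosine of that reaction, fell there by 0.23 ± 0.06 at its second probe set (adjusted p = 0.0326), but did not pass at its brightest. Ahcy gave 0.13 between the strains with 2 kidneys (adjusted p = 0.273) and -0.12 with 1 (adjusted p = 0.264). Gamt, which uses S-adenosylmethionine to finish creatine, was lower in SBH/y by 0.24 ± 0.06 with 2 kidneys (adjusted p = 0.00507) and by 0.27 ± 0.05 with 1 (adjusted p = 0.000729). With Bhmt2, it made up the lower calls between the strains at either kidney number. In all, 23.1% of the 13 genes passed with 2 kidneys, against 11.0% of all genes. With 1 kidney 15.4% passed, against 17.7% of all genes. Ahcyl2 was higher with 2 kidneys by 0.38 ± 0.08 (adjusted p = 0.00108). Its second probe set gave -0.15 (adjusted p = 0.36), with means of 4.33 in SBH/y and 4.48 in SBN/y, under the median probe set.

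The methionine synthase gene Mtr, which competes with Bhmt for homocysteine, passed in no comparison, with a strain difference of 0.13 (95% interval from -0.02 to 0.27) with 2 kidneys. Neither did Mat2b, the regulatory subunit partner of Mat2a, with 0.00 after uninephrectomy in SBH/y (95% interval from -0.10 to 0.11), nor Gatm, which starts creatine synthesis, with -0.00 there (95% interval from -0.15 to 0.15). The liver form Mat1a had group means from 3.71 to 3.83, under the median probe set, and passed in no comparison.

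Of 7 measured genes of choline and betaine supply, Aldh7a1, which can oxidise betaine aldehyde to betaine, was higher in SBH/y by 0.29 ± 0.06 with 2 kidneys (adjusted p = 0.000484) and by 0.23 ± 0.05 with 1 (adjusted p = 0.00283). Chdh, the choline dehydrogenase that makes betaine aldehyde, gave -0.15 with 2 kidneys (adjusted p = 0.157) and 0.06 with 1 (adjusted p = 0.625). Slc44a1, a choline transporter, was higher in SBH/y with 1 kidney by 0.29 ± 0.07 (adjusted p = 0.00618) and rose in SBH/y after uninephrectomy by 0.24 ± 0.07 (adjusted p = 0.0494), although its other probe sets did not pass. Slc25a48, a mitochondrial choline carrier, was lower in SBH/y with 1 kidney by 0.26 ± 0.09 (adjusted p = 0.0459). Its second probe set was lower at both kidney numbers, by 0.22 ± 0.07 with 2 (adjusted p = 0.034) and by 0.28 ± 0.06 with 1 (adjusted p = 0.00198). Slc6a20a, named above, was outside these counts, as the list held the symbol Slc6a20. It gave -0.262 after uninephrectomy in SBH/y (limma adjusted p = 0.0369) and -0.225 between the strains with 1 kidney (adjusted p = 0.0427).

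Of 22 measured folate genes, 3 were lower in SBH/y with 2 kidneys (13.6%), near the 11.0% of all genes that passed there. With 1 kidney 5 were lower and 1 higher, in all 27.3% against 17.7% of all genes. Ftcd, which feeds histidine carbon into the folate pool, was lower by 0.83 ± 0.09 with 2 kidneys (adjusted p = 4.81e-08) and by 1.06 ± 0.08 with 1 (adjusted p = 1.27e-10). Folr1, the folate receptor of the proximal tubule, was lower by 0.69 ± 0.05 with 2 kidneys (adjusted p = 7.27e-11) and by 0.62 ± 0.05 with 1 (adjusted p = 1.64e-10). Mthfd1, the trifunctional enzyme of cytosolic folate, was lower by 0.31 ± 0.05 with 2 kidneys (adjusted p = 5.83e-05) and by 0.48 ± 0.05 with 1 (adjusted p = 1.45e-08).

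After uninephrectomy in SBH/y, 3 folate genes fell, namely Mthfd1 by 0.23 ± 0.05 (adjusted p = 0.00225), the folate carrier Slc19a1 by 0.22 ± 0.05 (adjusted p = 0.00678) and the mitochondrial folate carrier Slc25a32 by 0.21 ± 0.06 (adjusted p = 0.0462). Mthfd1l rose by 0.20 ± 0.06 (adjusted p = 0.0361), with group means of 2.73 in SBH/y with 1 kidney and 2.53 with 2, under the median probe set, as were those of Slc25a32 (3.67 and 3.88). In all, 18.2% of the 22 folate genes passed after uninephrectomy in SBH/y, against 7.16% of all genes. Shmt1, the cytosolic enzyme that loads serine carbon onto folate, passed in no comparison and gave -0.06 after uninephrectomy in SBH/y (95% interval from -0.17 to 0.05).

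Downstream of Cth, 13 genes of cysteine and sulfur handling were measured. Cdo1, the cysteine dioxygenase that commits cysteine to taurine and sulfate, was lower in SBH/y by 0.44 ± 0.07 with 2 kidneys (adjusted p = 4.96e-05) and by 0.70 ± 0.07 with 1 (adjusted p = 9.69e-09). It fell to 9.27 ± 0.16 in SBH/y with 1 kidney, against 9.64 ± 0.08 in SBH/y with 2 (SD, n = 6 each, adjusted p = 0.000621). Ethe1, the persulfide dioxygenase, was lower by 0.55 ± 0.06 with 2 kidneys and by 0.70 ± 0.06 with 1 (adjusted p = 3.27e-07 and 1.09e-09), while Sqor, the sulfide quinone oxidoreductase, was higher with 2 kidneys by 0.56 ± 0.06 (adjusted p = 1.2e-07).

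Gclc, the catalytic subunit of the first enzyme of glutathione synthesis, fell in SBH/y after uninephrectomy by 0.19 ± 0.04 (adjusted p = 0.00875), and by 0.35 ± 0.06 at its second probe set. Gadl1, a decarboxylase of acidic amino acids, was higher in SBH/y by 1.74 ± 0.12 with 2 kidneys (adjusted p = 9.94e-12). It fell in SBH/y after uninephrectomy by 0.45 ± 0.11 (adjusted p = 0.014). Its means of 4.55 in SBH/y with 1 kidney, 3.31 in SBN/y with 1 and 3.26 in SBN/y with 2 lay under the median probe set, so the sizes of these differences are uncertain. In all, 6 of the 13 genes were lower and 2 higher in SBH/y with 1 kidney (61.5%, against 17.7% of all genes). With 2 kidneys 4 were lower and 2 higher (46.2%, against 11.0% of all genes). After uninephrectomy in SBH/y 3 fell and 0 rose (23.1%, against 7.16% of all genes).

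**Figure D5:**
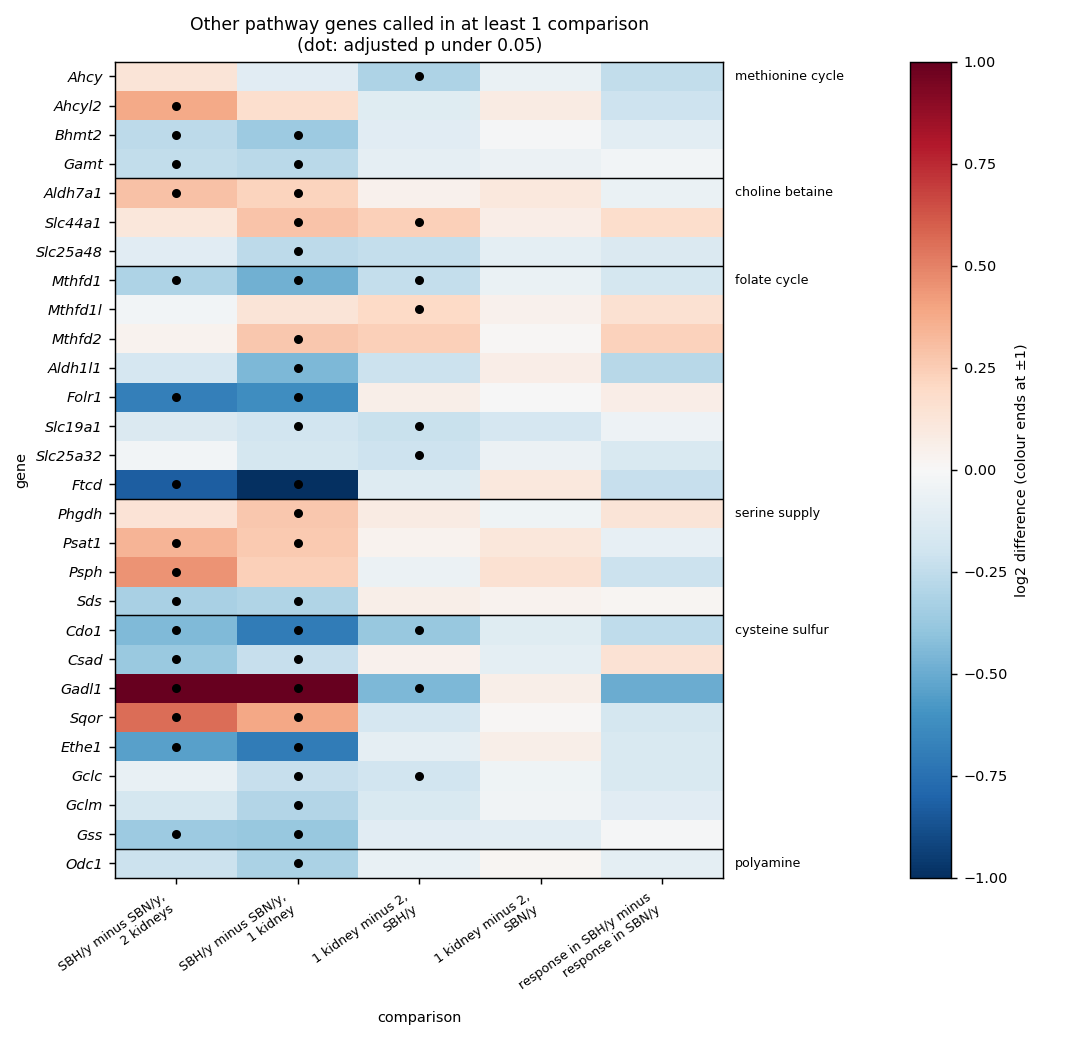
Log2 differences of the other pathway genes that passed in at least 1 comparison, by pathway, with dots where the adjusted p was under 0.05 and colours that end at -1 and 1. Most dots lie in the strain comparisons, the SBN/y column has none, and Ftcd and Gadl1 reach the ends of the scale with 1 kidney.

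Kidney markers were high: all 16 proximal tubule genes lay above the median probe set on every array, and Umod of the thick ascending limb had group means from 12.41 to 12.51. Of 8 liver genes, 6 lay below the median probe set on every array (Alb, Apoa1, Apoa2, Fgb, Serpina1 and Tat), as did all 3 adrenal genes. The liver gene Apoc3 lay above it on every array, with group means from 7.11 to 7.26. Fga had group means from 4.36 to 5.30. The mean over the 16 proximal tubule genes ran from 10.41 to 10.63 in SBH/y with 1 kidney, from 10.49 to 10.57 in SBH/y with 2, from 10.43 to 10.55 in SBN/y with 1 and from 10.41 to 10.53 in SBN/y with 2. These groups overlapped, and 1 of the 16 genes (6.25%) passed after uninephrectomy in SBH/y, against 7.16% of all genes. This was Slc7a13, which fell by 0.29 ± 0.06, with Lrp2 at -0.02 and Slc34a1 at -0.05. In whole kidney, fewer cells of a type and less RNA per cell cannot be told apart.

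Myeloid markers were highest in SBH/y with 1 kidney, the group in which each of the 7 genes had its lowest mean. Their mean over 10 genes ran from 7.69 to 8.13 in SBH/y with 1 kidney, from 7.24 to 7.36 in SBH/y with 2, from 7.08 to 7.58 in SBN/y with 1 and from 7.03 to 7.12 in SBN/y with 2. All 10 rose in SBH/y after uninephrectomy, against 4.76% of all genes. All 10 were higher in SBH/y than in SBN/y with 1 kidney, against 10.2% of all genes. With 2 kidneys 4 were higher, against 5.50% of all genes. Of 8 markers of other nephron segments, 3 fell in SBH/y after uninephrectomy, against 2.40% of all genes. Of 6 fat genes, 3 were lower in SBH/y with 2 kidneys and 2 with 1, against 5.54% and 7.48% of all genes. Of 3 red blood cell genes, Hbb and Alas2 were lower in SBH/y at both kidney numbers, Hbb by 0.53 ± 0.14 with 2 kidneys and 0.51 ± 0.13 with 1, and Alas2 by 0.81 ± 0.15 and 0.80 ± 0.14. Of the 8 liver genes, the fibrinogen genes Fgb and Fga rose in SBH/y after uninephrectomy, by 0.61 ± 0.11 and 0.41 ± 0.11. The part of these cells in the results was not tested.

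The GAPDH signal of the 3' minus the 5' control probe sets, a sign of RNA quality, averaged 0.53 ± 0.11 in SBH/y with 1 kidney, 0.46 ± 0.06 in SBH/y with 2, 0.45 ± 0.04 in SBN/y with 1 and 0.35 ± 0.03 in SBN/y with 2 (SD). With it as a covariate, the uninephrectomy difference in SBH/y was -0.50 for Bhmt (adjusted p = 0.00167), -0.32 for Mat2a (adjusted p = 0.00175) and -0.42 for Gnmt (adjusted p = 0.00436). Cth lost its calls, at -0.20 after uninephrectomy in SBH/y (adjusted p = 0.129) and -0.15 between the strains with 1 kidney (adjusted p = 0.2). Cbs gained both, at -0.22 (adjusted p = 0.0277) and -0.22 (adjusted p = 0.014), and Mat2a passed for the difference between the responses (-0.38, adjusted p = 0.0255).

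Replicate 2 of SBH/y with 1 kidney and replicate 3 of SBH/y with 2 kidneys stood apart from the other arrays on the second principal component. Without both, the uninephrectomy difference in SBH/y was -0.47 for Bhmt, -0.34 for Mat2a and -0.43 for Gnmt, each still past the threshold, and the strain call of Cth with 1 kidney was lost (adjusted p = 0.0662). Within groups, arrays correlated at 0.990 to 0.997, and no pair of arrays held identical values. The labels do not state that each array came from a separate animal, so a p-value measures spread between samples that may be technical.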

How the data were processed

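The deposited values are log2 signals, 1 per probe set and array, which the authors made with the GCOS and RMA software, as the submitters' processing notes record. Versions and the genome build are not given in the sources used here. RMA is known to quantile-normalize arrays, so a change in total mRNA could not be seen. Of 31099 probe sets, 57 controls were left out and 31042 tested. The platform annotation gave 1 symbol to 20826, several to 436 and none to 9780, and RefSeq identifiers were found for 20758. No value column was left unused (0).

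Groups were modelled by their means in limma (version 3.58.1, under R 4.3.3), which gave 5 two-sided contrasts, with Benjamini-Hochberg adjustment over all probe sets and a threshold of 0.05. Errors are standard errors unless SD is given. The number of arrays limits the precision. The fit was tested on simulated data. The 7 genes, the lists and the tests were chosen with earlier results of these data known. Named were the 7 genes, up to 3 called genes per pathway list and contrast with the smallest p, neighbouring enzymes, the 2 nearest profiles and the 2 measured genes on either side. Alternatives were quantile normalization run again, a trended and robust variance, removal of dim probe sets, fits of only the groups in question, tests of 1 probe set per gene, the replicate number as a block, the other probe sets of a gene, a GAPDH covariate, a fit without 2 arrays, and each array left out in turn.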

Additional observations from a re-analysis of the deposited data

Results flagged for a closer look

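Mat2a in SBN/y with 1 kidney held 1 value far from the rest of its group. Replicate 4 read 10.86, while the other arrays of that group read from 10.47 to 10.60. The second Mat2a probe set was also highest there, at 9.69. Without this array the strain difference of Mat2a with 1 kidney was -0.31 and still passed the limma threshold. This check was made in 28 groups of arrays, and chance singles out about 1 group in 20.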

How the results depend on the processing

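The calls of Bhmt, Dmgdh and Gnmt in the strain and uninephrectomy comparisons, where they passed, were kept under every alternative run, as were those of Mat2a except at its dimmest probe set, and no called value changed sign. For the difference between the responses, 1 of the 7 genes was called instead of 0 with a trended and robust variance and with the GAPDH covariate, and 124 probe sets instead of 79 in either case; the cause was not tested. With 1 probe set per gene, fewer features were tested and 1748 instead of 2817 probe sets were called between the strains with 2 kidneys, and 2810 instead of 4342 with 1 kidney. With single arrays left out, the number of the 7 genes called for the difference between the responses lay between 0 and 2, and the number of probe sets between 52 and 157 there and between 24 and 78 for uninephrectomy in SBN/y (52 with all arrays).

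With the replicate number as a block, 3, 5, 4, 0 and 0 of the 7 genes were called between the strains with 2 kidneys and with 1, after uninephrectomy in SBH/y and in SBN/y, and for the difference between these responses, as without it. Arrays share only a number: of 22 same-numbered pairs, 6 correlated above 0.1 (range from -0.17 to 0.26).

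RMA values carry no depth. Signal over background limits Mat1a, Mthfd1l, Slc25a32, Fgb, the second Ahcyl2 and the third Mat2a probe set, which lay under the median probe set (4.662). The same holds for Gadl1 (except in SBH/y with 2 kidneys) and for Aldh1b1 in SBH/y with 1 kidney.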
